A study of Mus musculus with 21 samples.

Results

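The Id proteins and the E proteins they bind were followed at the level of their transcripts, over Id1, Id2, Id3, Tcf3, Tcf4 and Tcf12. These 6 genes were chosen by name. Of them, 5 had a row in each of the 4 expression tables, out of 14698 genes held by any table and 9973 held by all 4, and Id3 was not analysed here. The cells were Ba/F3, a mouse pro-B line that normally depends on interleukin 3, and every group, the DMSO controls included, stably carried JAK2-V617F, the activated kinase of myeloproliferative neoplasms. RNA was sequenced from 21 libraries in 7 groups of 3. The 6 h groups were DMSO_treated, Ruxo_treated (1 μM ruxolitinib, a type I JAK inhibitor) and CHZ_treated (1 μM CHZ868, a type II JAK2 inhibitor). The washout groups had 1 h of inhibitor or DMSO and then 6 h without it. They were Ruxo_wash with its control DMSO_wash, and CHZ_wash with its own control DMSO_wash_exp3. The comparisons asked how these genes responded while each inhibitor was present, and whether a rebound followed its removal.

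Helix-loop-helix (HLH) proteins pair through a pair of helices joined by a loop. E proteins (E2A from Tcf3, E2-2 from Tcf4 and HEB from Tcf12) also have a basic stretch that binds DNA at the E-box CANNTG, and they drive genes of the B and T lineages. Id proteins keep the HLH region but lack the basic stretch, so an E protein held by an Id protein cannot bind DNA. Id genes are typically active in growing progenitors, and JAK-STAT signalling and bone morphogenetic protein (BMP) signalling are among their inputs.

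The stretch that encodes the HLH region of the Id genes held by the tables is shown because it is where they are most alike and where the E proteins attach. It was read from GRCm38 with the GENCODE annotation, on the coding strand. Capitals mark the bases that Id1 and Id2 share, which are 98 of 120 (81.7%). The Id1 stretch lies at chr2:152736512-152736631 on the plus strand, in the coding part of exonic sequence, and the Id2 stretch at chr12:25095789-25095908 on the minus strand.
Id1: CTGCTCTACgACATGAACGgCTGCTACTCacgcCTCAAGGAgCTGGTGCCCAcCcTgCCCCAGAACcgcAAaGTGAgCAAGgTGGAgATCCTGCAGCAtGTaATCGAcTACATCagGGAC
Id2: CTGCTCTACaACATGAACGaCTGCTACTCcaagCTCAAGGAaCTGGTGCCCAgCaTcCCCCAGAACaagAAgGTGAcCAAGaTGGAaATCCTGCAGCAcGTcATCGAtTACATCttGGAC
The Id1 stretch spans coding bases 172 to 291 of 444, and that of Id2 spans bases 103 to 222 of 402. In spite of this likeness the transcripts can be told apart. No 31-base word of Id1 occurs in the transcripts of another gene, and for Id2 39 of its 2433 words occur elsewhere, all in Gm6175.

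In the same annotation Id1 (ENSMUSG00000042745.9) lies at chr2:152736251-152737410 on the plus strand, and Id2 (ENSMUSG00000020644.9) at chr12:25093799-25097140 on the minus strand. Tcf3 (ENSMUSG00000020167.14) lies at chr10:80409514-80433647 on the minus strand, Tcf12 (ENSMUSG00000032228.16) at chr9:71842688-72111871 on the minus strand and Tcf4 (ENSMUSG00000053477.17) at chr18:69343356-69689079 on the plus strand. Tcf3 shares no 31-base word with other genes, Tcf4 shares 295 of 27956 and Tcf12 198 of 15845. Tcf12 overlaps 7 annotated genes on its own strand and 4 on the other, and Tcf4 overlaps 1 on its own strand. Since the counting was not stated to use strand, Tcf12 values may hold some reads of these neighbours.

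Values are log2 CPM, read counts scaled to the size of the library. Within 3 tables the values corresponded to whole reads, and those libraries held 7880000 to 10670000 reads on the listed genes (median 9090000). The table with Ruxo_wash and DMSO_wash did not, so its depth is unknown. Replicates of the 3 tables differed by 2.11 to 17.8 times the variance of counting noise, so none was a copy of another. Ruxo_treated replicate 2 and DMSO_wash_exp3 replicate 3 stood apart from their groups, with an SD over genes of 0.31 log2 units each against the mean of the other libraries of the group, where the other 19 libraries had 0.10 to 0.24. Of 16 pro-B markers, 8 had a row in each table, led by the interleukin 3 receptor gene Csf2rb. The defining B-lineage genes Pax5, Ebf1, Vpreb1, Igll1 and Il7r had no row there, so the pro-B identity rests on the name of the line. The tables were normalized separately, and levels in different tables are not on 1 scale.

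Id1 was lower with both inhibitors present, a fall past the threshold with CHZ868 and a separation described without a test with ruxolitinib. It had 6.64, 6.72 and 6.64 log2 CPM in the DMSO_treated libraries (869, 1081 and 941 reads). In the CHZ_treated libraries it had 4.16, 4.39 and 4.72 log2 CPM (178, 157 and 210 reads). All CHZ_treated libraries lay below all DMSO_treated ones, as they did for 30.1% of genes. The mean of 4.43 ± 0.28 against 6.67 ± 0.05 (SD, n = 3 each) gave a log2 difference of -2.24 with a standard error of 0.12 and a 95% confidence interval from -2.50 to -1.98, which is 4.73-fold (adjusted p = 1.36e-09, limma-trend, adjusted over the whole table). Leaving out each library in turn moved it between -2.39 and -2.11. In this comparison 53.2% of 11670 genes passed the same threshold, with 26.8% of all genes higher and 26.4% lower, so passing it does not set Id1 apart. The size of its fall was reached by only 91 genes, Id1 included.

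In the Ruxo_treated libraries Id1 had 4.77, 4.71 and 4.74 log2 CPM (264, 257 and 251 reads). These libraries lie in a table without a control, so each was centred on its median over the 11624 genes shared with the DMSO_treated libraries, and the comparison is a description without a test. The centred level was -0.53 ± 0.03 in Ruxo_treated and 1.42 ± 0.05 in DMSO_treated cells (SD, n = 3 each), a difference of -1.95 log2 units or 3.86-fold, without overlap (20.1% of genes lay below the controls in this way). A difference this low was found for 97 genes, Id1 included. At least 1 log2 unit without overlap was reached by 3.12% of genes (2.83% lower), and Id1 was the only one of the 5 genes to reach it. The 6 h comparisons share the DMSO_treated libraries, so the values of -1.95 and -2.24 are not independent of each other.

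**Figure D1:**
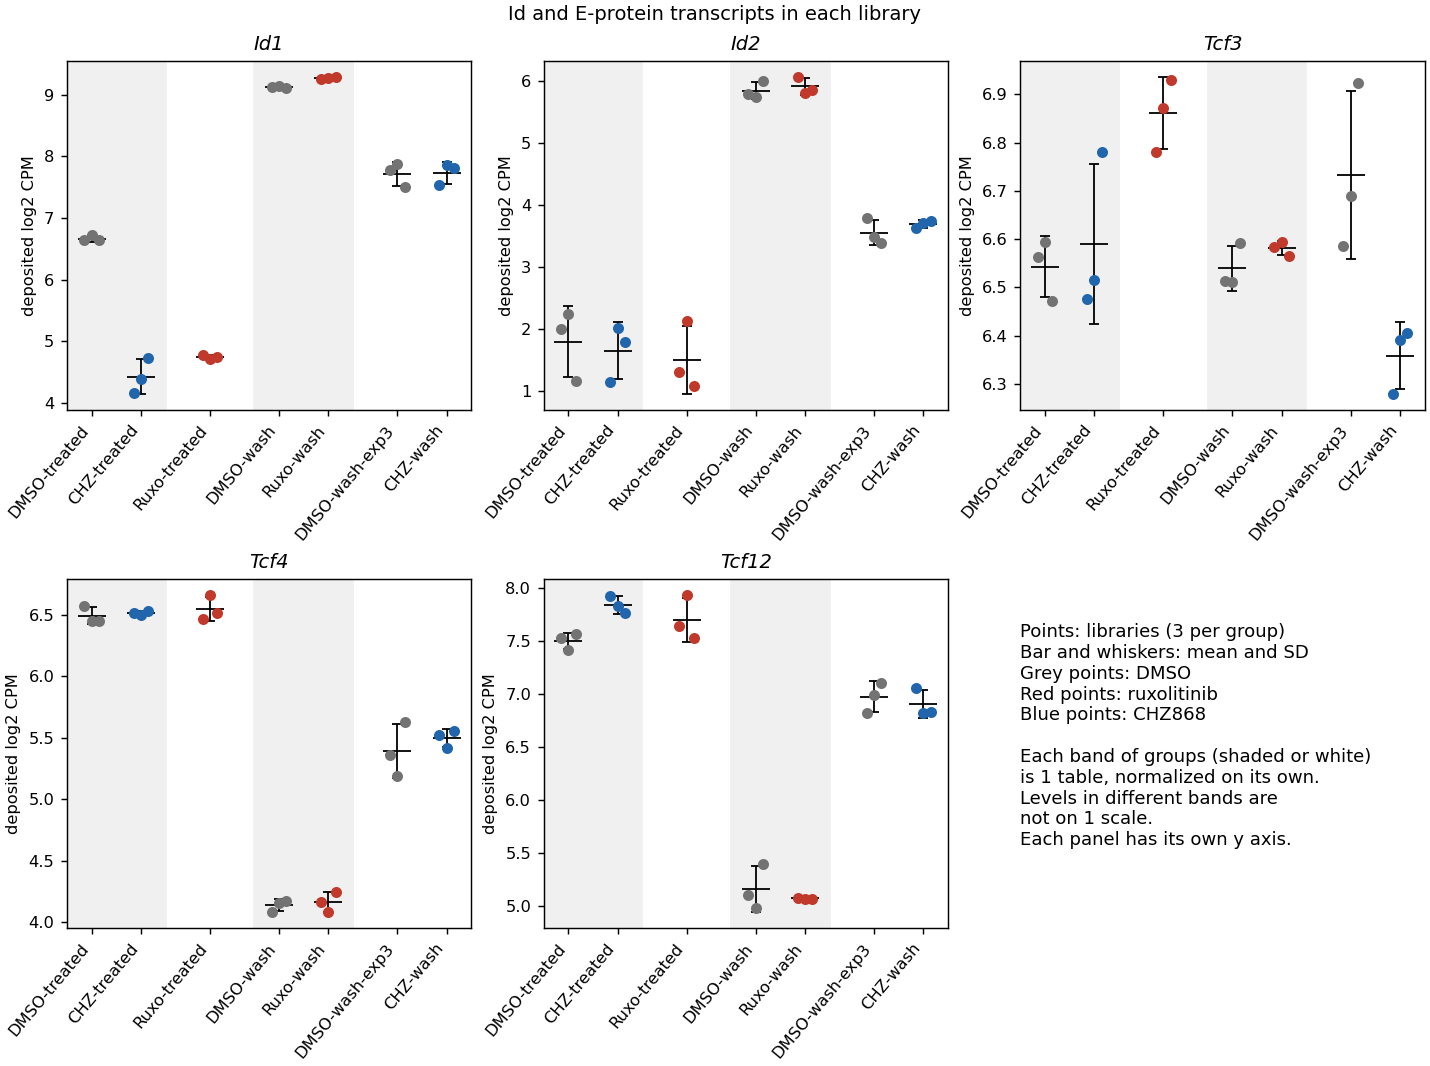
Deposited log2 CPM (y axis, its own range in each panel) of Id1, Id2, Tcf3, Tcf4 and Tcf12 in the 21 libraries, grouped along the x axis, with the mean and SD of each group; shaded and white bands are separate tables. Id1 was at 4.16 to 4.72 in CHZ_treated against 6.64 to 6.72 in DMSO_treated, and no other panel shows a gap of that size inside a table. Ruxo_treated, at 4.71 to 4.77, is a table of its own.

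In the washout experiments no low level of Id1 was seen 6 h after the inhibitor was removed, and its level after the 1 h of inhibitor was not measured. Id1 had 9.25, 9.27 and 9.29 log2 CPM in the Ruxo_wash libraries and 9.13, 9.14 and 9.11 in the DMSO_wash libraries. All Ruxo_wash libraries lay above all DMSO_wash libraries, as they did for 6.3% of the 13085 genes in this table. The log2 difference was 0.14 with a standard error of 0.02 (95% confidence interval 0.09 to 0.19) and did not pass the threshold over all genes (adjusted p = 0.197, limma). Only 0.0229% of genes passed it, all of them downward. In the CHZ868 experiment Id1 had 7.53, 7.86 and 7.81 log2 CPM in CHZ_wash and 7.77, 7.88 and 7.50 in DMSO_wash_exp3 libraries. The groups overlapped, with a log2 difference of 0.02 (95% confidence interval -0.25 to 0.28, adjusted p = 0.947, limma), whose sign turned without any of 3 single libraries (-0.09 without DMSO_wash_exp3 replicate 3). The ruxolitinib effect exceeded the CHZ868 effect by 0.13 log2 units (95% confidence interval -0.17 to 0.42, adjusted p = 0.663, limma), so a difference between the washout effects was not shown, and the inhibitor and the experiment cannot be told apart.

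Id2, which restrains E proteins in many lymphoid cells, was scarce in these cells at 6 h. It had 33, 46 and 19 reads in the DMSO_treated libraries, 20, 29 and 26 in CHZ_treated and 22, 41 and 18 in Ruxo_treated libraries. The groups overlapped, and replicates of 1 group spread as widely as the groups did. The log2 difference with CHZ868 was -0.15 (95% confidence interval -0.95 to 0.66, adjusted p = 0.763, limma), an interval that leaves room for a fall or a rise of some size, and its sign depended on single libraries and on the normalization. For ruxolitinib the centred difference was -0.32, and groups overlapped. It ranged from -0.64 to -0.10 with single libraries left out (-0.64 without Ruxo_treated replicate 2 or DMSO_treated replicate 3) and was 0.13 with quantile normalization. In the washout experiments Id2 lay at 5.81 to 6.07 log2 CPM in Ruxo_wash and 5.74 to 6.00 in DMSO_wash libraries, and at 3.63 to 3.75 in CHZ_wash and 3.39 to 3.79 in DMSO_wash_exp3 libraries (85 to 134 reads). Neither washout difference passed (0.07, adjusted p = 0.927, and 0.14, adjusted p = 0.634, limma). Per kilobase of its longest transcript, Id2 reached 1.07 to 2.39 CPM at 6 h and Id1 15.4 to 91.2 CPM, so Id1 was the more abundant Id transcript in every library of those groups.

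Tcf12 was the only E-protein gene that passed the threshold in any comparison, and it did so upward. It had 7.53, 7.41 and 7.56 log2 CPM in DMSO_treated and 7.92, 7.83 and 7.76 in CHZ_treated libraries (1609 to 1784 and 1710 to 2443 reads). All CHZ_treated libraries were above all DMSO_treated libraries, as for 29.6% of genes. The log2 difference was 0.34 with a standard error of 0.07 (95% confidence interval 0.20 to 0.48, adjusted p = 0.000507, limma), or 1.26-fold, and 0.29 to 0.38 with each library left out. A rise at the threshold was found for 26.8% of all genes, and 2695 genes were higher by at least as much. In Ruxo_treated libraries Tcf12 had 7.63, 7.93 and 7.53 log2 CPM, and the centred difference of 0.17 came with overlap. It was 0.05 without replicate 2, the library that stood apart, and 0.27 without replicate 3. After washout Tcf12 differed by -0.09 (adjusted p = 0.908, limma) for ruxolitinib and by -0.07 (adjusted p = 0.715, limma) for CHZ868, and neither passed.

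Tcf3, whose E2A products are needed to make B cells, passed no threshold, although its groups separated in a pair of comparisons. At 6 h it had 6.56, 6.59 and 6.47 log2 CPM in DMSO_treated, 6.48, 6.51 and 6.78 in CHZ_treated and 6.78, 6.87 and 6.93 in Ruxo_treated libraries. CHZ_treated and DMSO_treated overlapped, with a log2 difference of 0.05 (95% confidence interval -0.13 to 0.23, adjusted p = 0.661, limma). Ruxo_treated libraries all lay above the DMSO_treated ones, with a centred difference of 0.29 (0.26 to 0.34 with each library left out). Such a separation upward was found for 24.6% of the 11624 genes.

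After washout the Tcf3 values of the CHZ868 experiment separated downward. Tcf3 had 6.28, 6.39 and 6.41 log2 CPM in CHZ_wash libraries (645, 770 and 763 reads) and 6.59, 6.69 and 6.92 in DMSO_wash_exp3 libraries (943, 972 and 1004 reads). Every CHZ_wash library lay below every control, as for 16.1% of the 11355 genes. The log2 difference was -0.37 with a standard error of 0.10 (95% confidence interval -0.60 to -0.15) and missed the threshold over all genes, which 4.02% of genes passed (adjusted p = 0.0642, limma). It was -0.28 without DMSO_wash_exp3 replicate 3, which had the highest Tcf3 value of its group, and -0.40 without replicate 2, and it then passed (adjusted p = 0.037 and 0.0478, limma). In the ruxolitinib experiment Tcf3 had 6.57 to 6.60 log2 CPM in Ruxo_wash and 6.51 to 6.59 in DMSO_wash libraries, an overlap with a difference of 0.04 (adjusted p = 0.887, limma). The ruxolitinib effect exceeded the CHZ868 effect by 0.42 log2 units (95% confidence interval 0.17 to 0.66, adjusted p = 0.0742, limma), where 1.9% of 10078 genes passed. Without DMSO_wash_exp3 replicate 3 this was 0.32 and passed (adjusted p = 0.0445, limma).

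Tcf4 encodes the E protein that plasmacytoid dendritic cells depend on. It had 6.57, 6.45 and 6.45 log2 CPM in DMSO_treated, 6.51, 6.49 and 6.53 in CHZ_treated and 6.47, 6.66 and 6.51 in Ruxo_treated libraries. All 3 groups overlapped. The log2 difference with CHZ868 was 0.02 (95% confidence interval -0.13 to 0.17, adjusted p = 0.82, limma), and the centred difference with ruxolitinib was 0.03. In the washout experiments the differences were 0.02 (adjusted p = 0.979, limma) for ruxolitinib and 0.11 (adjusted p = 0.635, limma) for CHZ868. In all 4 comparisons with an inhibitor, Tcf4 libraries of the inhibitor overlapped those of the control.

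**Figure D2:**
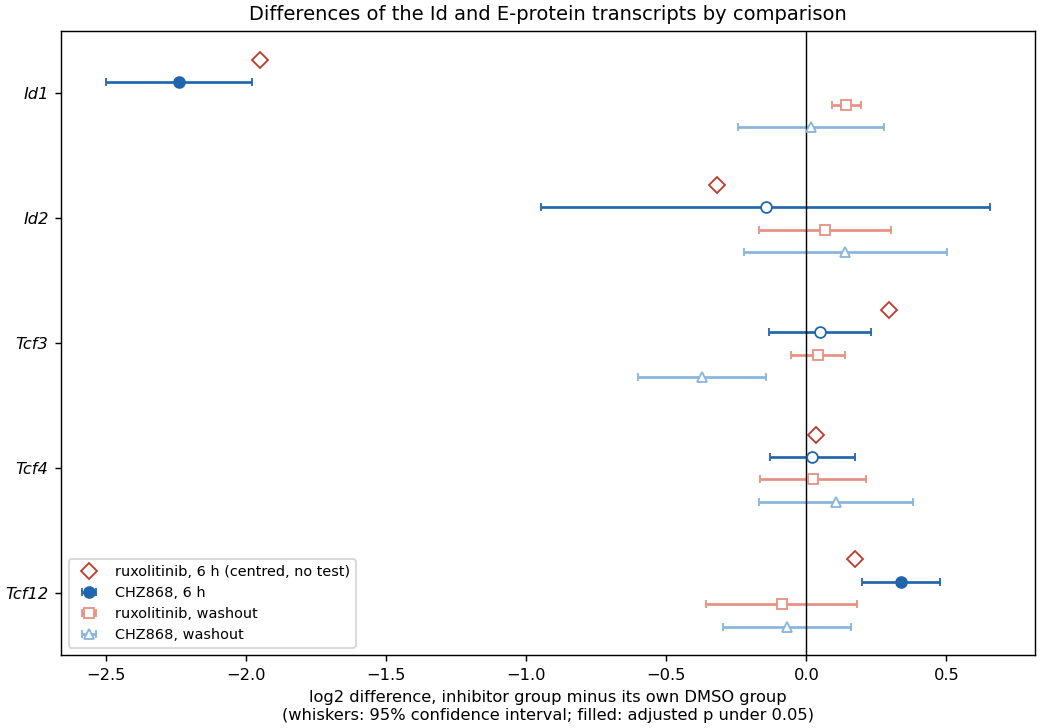
Log2 difference between each inhibitor group and its own DMSO group (x axis) for the 5 genes (y axis), with 95% confidence intervals from limma-trend; filled symbols passed the adjusted threshold, and the open diamonds for 6 h of ruxolitinib are centred differences without a test. Id1 lies at -1.95 and -2.24 at 6 h, and the remaining points lie between -0.37 and 0.34.

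Counted over the 5 genes, CHZ868 at 6 h gave 1 fall (Id1) and 1 rise (Tcf12) past the threshold, or 2 of 5 genes where 53.2% of all genes passed. Neither washout comparison nor the difference between them gave a call among the 5. Of all genes, 0.0229% passed after ruxolitinib washout, 4.02% after CHZ868 washout and 1.9% in the difference. The number of genes called in the CHZ868 washout is set by single libraries. It was 457 with all libraries, 1298 and 1426 without DMSO_wash_exp3 replicates 2 and 3, and 0 or 1 without any of the other 4.

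The abundance of Id over E-protein transcripts was compared as a log2 ratio per library, after each CPM was divided by the length of the longest annotated transcript in kilobases, with Id1 and Id2 summed against Tcf3, Tcf4 and Tcf12. It is a ratio of transcripts, not of proteins. In DMSO_treated libraries it was 0.28, 0.42 and 0.31, so the Id sum was slightly above the E-protein sum on this scale. That sign rests on the division by the longest transcript, and the transcript forms in use were not determined. Undivided, Tcf12 alone had 7.50 log2 CPM there, against 6.67 for Id1 and 1.80 for Id2. In CHZ_treated libraries it was -2.26, -1.94 and -1.75, and in Ruxo_treated libraries -1.68, -1.86 and -1.75. All inhibitor-treated libraries thus had more E-protein than Id transcript. The summed Id level was 87.02 to 93.6 CPM per kilobase in DMSO_treated, 16.5 to 24.5 in CHZ_treated and 24.1 to 24.8 in Ruxo_treated libraries. The summed E-protein level was 70.0 to 72.4, 77.5 to 82.5 and 79.1 to 90.2 CPM per kilobase in the same order. Most of the shift of -2.32 (CHZ868) and -2.10 (ruxolitinib) log2 units therefore lay in the Id sum, and within it in Id1. Without the division by length these shifts were -2.29 and -2.02.

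After washout the ratio was 3.82 ± 0.02 in Ruxo_wash and 3.70 ± 0.08 in DMSO_wash cells (SD, n = 3 each), a difference of 0.12 that was 0.07 without DMSO_wash replicate 3. In the CHZ868 experiment it was 1.87 ± 0.19 in CHZ_wash and 1.62 ± 0.34 in DMSO_wash_exp3 cells, a difference of 0.24. That difference fell to 0.05 without DMSO_wash_exp3 replicate 3, whose ratio of 1.23 was the lowest of its group against 1.82 and 1.81. No test was run on the ratio.

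**Figure D3:**
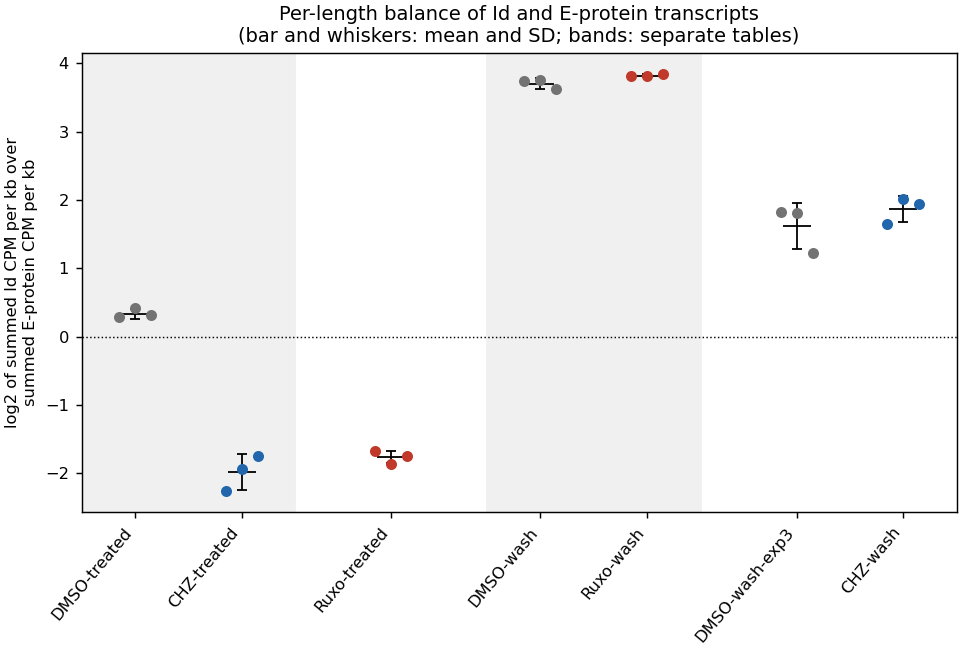
Log2 ratio of the summed Id1 and Id2 CPM per kilobase over the summed Tcf3, Tcf4 and Tcf12 CPM per kilobase (y axis) in each library by group (x axis), with the mean and SD; bands are separate tables and the dotted line marks equal sums. The ratio was 0.28 to 0.42 in DMSO_treated and -2.26 to -1.68 in the inhibitor-treated libraries.

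Among 15 genes whose products form complexes with E proteins, 11 were in the 6 h table with CHZ868, and 6 rose and 1 fell (median difference 0.26, against -0.01 over all genes). That is 7 of 11 called where 53.2% of all genes were. Those that rose were Lmo4 (0.63) and Ldb1 (0.30), which encode LIM-domain adaptors or their binder, Ssbp3 (0.51), which encodes an Ldb1-binding protein, Gata1 (0.47) and Runx1 (0.60), which encode blood transcription factors, and the corepressor gene Cbfa2t3 (0.26). Tal1, the HLH partner of E proteins in blood progenitors, fell by 0.35. Each had an adjusted p of at most 0.00166 (limma). With ruxolitinib, without a test, the median centred difference was 0.30 against 0.04 over all genes (0.20 without Ruxo_treated replicate 2), with Gata1 at 0.58, Ssbp3 at 0.48, Runx1 at 0.43 and Tal1 at -0.03. None of the 11 reached 1 log2 unit, which only 3.12% of all genes did without overlap.

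After CHZ868 washout the partner genes leaned downward, with a median of -0.22 against 0.01 over all genes. Ldb1 fell by 0.47 (adjusted p = 0.0408, limma) and Lyl1, a close relative of Tal1, fell by 0.40 (adjusted p = 0.0372, limma), where a fall was found for 2.07% of all genes. Without DMSO_wash_exp3 replicate 3, Cbfa2t3 and Ssbp3 also passed downward, which makes 4 of 11, but the calls over all genes also grew, with 5.87% of them downward. For Ldb1 the ruxolitinib washout effect minus the CHZ868 washout effect was 0.48 log2 units (adjusted p = 0.047, limma), a difference in this direction that 0.972% of genes had, and Ldb1 itself differed by 0.01 after ruxolitinib washout (adjusted p = 0.98, limma). Since at most 1 gene of the whole table passed once CHZ_wash replicate 1, 2 or 3 or DMSO_wash_exp3 replicate 1 was left out, each call named for the CHZ868 washout needs nearly all libraries. None of the 12 partner genes held passed after ruxolitinib washout, where only 0.0229% of all genes did.

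The Id proteins are degraded with the help of the anaphase-promoting complex and spared by the deubiquitinase Usp1 with its partner Wdr48. All 7 genes of this turnover list were in the tables, and 4 rose with CHZ868 at 6 h, none fell, and the median was 0.16 against -0.01 over all genes. Taken in either direction, 4 of 7 is close to the 53.2% of all genes that passed. All 4 rose, where 26.8% of all genes did, and no test of the list was run. Cdc27 (0.49, adjusted p = 6.03e-06) and Cdc16 (0.19, adjusted p = 0.0408) encode subunits of the complex, and Wdr48 rose by 0.44 (adjusted p = 0.000155) and Usp1 by 0.16 (adjusted p = 0.04, all limma). Genes of both actions, sparing and degrading, were thus among those that rose. With ruxolitinib the centred differences were 0.39 for Cdc27, 0.33 for Wdr48, 0.56 for the activator gene Fzr1 and -0.07 for Usp1. None reached 1 log2 unit, which only 3.12% of all genes did without overlap. No gene of this list passed after either washout, where 0.0229% (ruxolitinib) and 4.02% (CHZ868) of all genes did. Without DMSO_wash_exp3 replicate 3 Fzr1 passed downward after CHZ868 washout, as 5.87% of all genes did.

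Of 19 BMP, TGF-beta and SMAD genes that can feed into Id transcription, 11 were in the CHZ868 table at 6 h, with 4 higher, 2 lower and a median of 0.06. These 6 of 11 match the 53.2% of all genes that passed. Bmpr2, a type II BMP receptor gene, rose by 0.66 (adjusted p = 4.22e-06, limma), and Smurf2 (0.43), Tgfb1 (0.31) and Smad4 (0.24), which encode a ubiquitin ligase, a ligand and the common SMAD, also passed. Smurf1, which encodes the sister ligase, fell by 0.67 and the inhibitory SMAD gene Smad7, itself a target of this pathway, by 0.41 (adjusted p = 0.000627 and 0.0117, limma). The BMP SMAD genes did not pass, with Smad1 at 0.06 and Smad5 at -0.09 (adjusted p = 0.89 and 0.35). With ruxolitinib the centred differences were 0.22 for Bmpr2, 0.25 for Smurf2, 0.19 for Smad4, 0.09 for Tgfb1, -0.33 for Smurf1 and 0.08 for Smad7, and the Smurf2, Tgfb1 and Smad7 groups overlapped. After CHZ868 washout Tgfb1 fell by 0.73 (adjusted p = 0.0202, limma), and the ruxolitinib effect on Tgfb1 exceeded it by 0.72 (adjusted p = 0.0225, limma). Tgfb1 was the only gene of this list that passed in either test, of 9 and 7 genes held. Over all genes, 2.07% fell in the CHZ868 washout and 0.972% were higher in the difference. As stated above, a call in the CHZ868 washout needs nearly all libraries.

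Few of the classical B-lineage genes driven by E proteins could be followed, since only 4 of 22 had a row, and Ebf1, Pax5, Rag1 and Igll1 were among the genes not analysed here. With CHZ868 at 6 h, Cxcr4, the receptor that retains progenitors in marrow, rose by 1.38 (adjusted p = 3e-10, limma), and Cd79a, a signalling chain of the B cell receptor, rose by 0.42 (adjusted p = 0.0414, limma), although its groups overlapped. These 2 of 4 stand beside the 26.8% of all genes that rose. Notch1 (0.36, adjusted p = 0.051) and Cd79b (0.23, adjusted p = 0.29) did not pass. With ruxolitinib, Cxcr4 was 1.11 higher without overlap, which 0.292% of genes reached upward. It no longer reached 1 log2 unit without Ruxo_treated replicate 2. No gene of this list passed after washout, where 0.0229% (ruxolitinib) and 4.02% (CHZ868) of all genes did.

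Of 11 cell-cycle genes tied to Id and E proteins, the kinase inhibitors and the cyclins they oppose, 8 were in the CHZ868 table. Cdkn1b (0.47) and Cdkn1a (0.36), which encode p27 and p21, rose, and Ccnd2, Cdk6 and Ccnd3, which encode the G1 cyclins and their kinase, fell by 1.18, 0.76 and 0.18 (adjusted p from 3.61e-10 to 0.0357, limma). These are 5 of 8 genes, where 53.2% of all genes passed (26.8% up and 26.4% down), and the median was 0.00. With ruxolitinib Cdkn1b was 0.46 higher without overlap, where 24.6% of all genes lay above the controls. Ccnd2 was 1.07 lower without overlap, and 2.83% of all genes were lower by at least 1 log2 unit in this way. Cdk6 was 0.48 lower without overlap, where 20.1% of all genes lay below. Cdkn1a was 0.05 and Ccnd3 0.03 higher, both with overlap. After CHZ868 washout Cdkn2d, which encodes the kinase inhibitor p19, rose by 0.84 (adjusted p = 0.0323, limma), as 1.96% of all genes did. None of the list fell, where 2.07% of all genes did. Of 7 further HLH repressors, Hes6 and Bhlhe40 had rows. Hes6 fell by 0.45 with CHZ868 (adjusted p = 0.00387, limma), as 26.4% of all genes did, and Bhlhe40 was at 0.12 (adjusted p = 0.11). Without DMSO_wash_exp3 replicate 3, Bhlhe40 and Ccnd3 passed downward after CHZ868 washout and Cdkn2d upward. In that setting 5.87% of all genes passed downward and 6.68% upward.

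**Figure D4:**
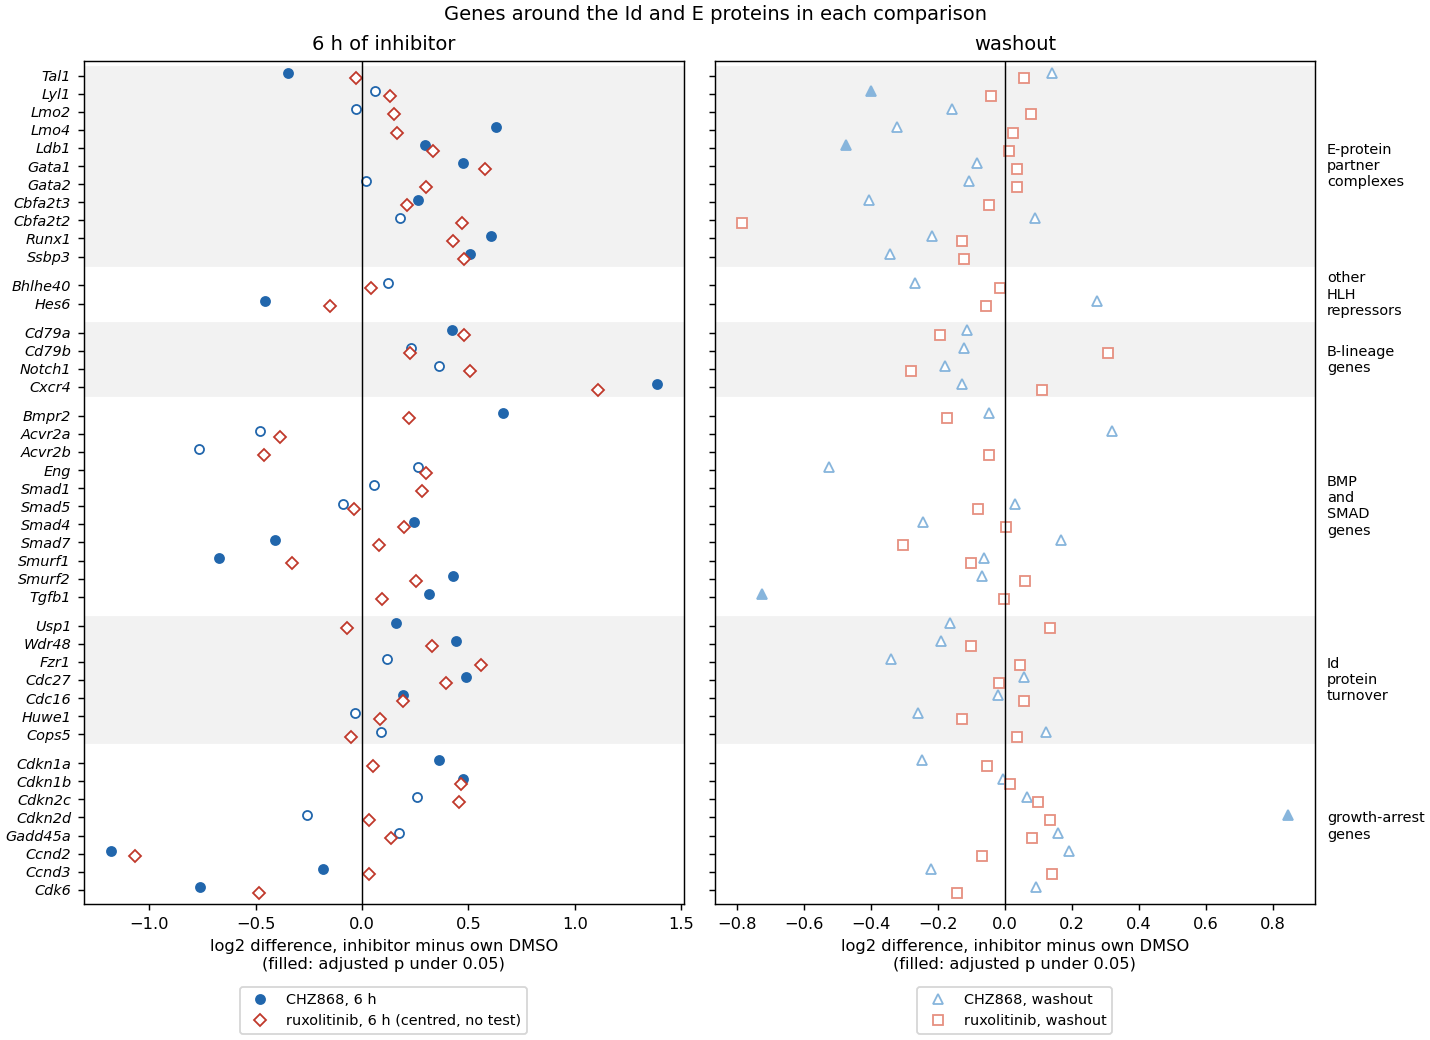
Log2 difference between each inhibitor group and its own DMSO group (x axis) for the listed genes held by the 6 h table with CHZ868 (y axis, grouped by list), at 6 h in the left panel and after washout in the right panel; filled symbols passed the adjusted threshold, and 6 h of ruxolitinib has no test. The points farthest from 0 at 6 h are Cxcr4 at 1.38 and 1.11 and Ccnd2 at -1.18 and -1.07. After washout 4 of the genes shown passed, all with CHZ868, where 4.02% of all genes passed, against 0.0229% with ruxolitinib.

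The genes whose pattern was most like that of each member were found over the 21 libraries, each taken as a difference from the mean of its own DMSO group. For each of 9973 genes, the measure was the root mean square difference from the member over 21 libraries, where 0 is an identical pattern. It is a description, since libraries within a table share a control and a normalization. Nearest to Id1 were H2-T24 (0.14), a non-classical MHC class I gene, Ifi35 (0.17), an interferon-induced gene, Gda (0.19), which encodes guanine deaminase, Gm36043 (0.20), and Cd274 (0.20), which encodes the checkpoint ligand PD-L1. These 5 genes differed by -2.03 to -1.69 log2 units with ruxolitinib and by -2.37 to -2.01 with CHZ868 at 6 h, and by -0.03 to 0.25 after the washouts. Id2, at 1.05, was far less like Id1 than they were.

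The E-protein genes lay closer to each other than to Id1, but the measure follows the size of change. Id1 moved by -1.95 and -2.24 log2 units at 6 h and the E-protein genes by far less. Other genes were nearer to each E-protein gene than the E-protein genes were to each other. Tcf3 lay 0.22 from Tcf12 and from Tcf4, Tcf4 lay 0.19 from Tcf12, and each lay at least 1.15 from Id1. Closest to Tcf3 were Bag6 (0.07), a chaperone gene, and Supt5 (0.08), an elongation factor gene, which were at -0.33 and -0.35 after CHZ868 washout where Tcf3 was at -0.37. Closest to Tcf4 were Ppp4r3b and N4bp2 (0.06 each). Tcf12 was nearest to Caprin1, which encodes an RNA-binding protein, and to the kinase gene Jak1 (0.09 each), which were at 0.29 and 0.28 with CHZ868 at 6 h. For Id2 the nearest were Knop1 and Rdh14 at 0.26 each, a looser fit than for the other genes.

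The promoters were searched for the E-box CANNTG and for the STAT motif TTCNNNGAA with its variant TTCNNGAA, on both strands, in the RefSeq windows of GRCm38.p6 from 250 bases before to 50 after each start. Entries were found for Id2, Id3, Tcf3 and Tcf12 and none was used for Id1 and Tcf4. No STAT motif was in the windows of these 4 genes, which says only that these letters are not in this window. Of 32851 windows, 8.30% held the first of these STAT motifs and 8.52% the variant. An E-box was in 72.3% of windows, and its form CAGCTG in 16.3%. That form was in Id2 at position -196 from the start and in the most upstream of the 3 Tcf12 windows at position -240. The 250 bases before these starts are shown because Tcf12 is the E-protein gene that rose and Id2 the Id gene that did not pass any test. They lie at chr12:25096093-25096342 (Id2) and chr9:72111820-72112069 (Tcf12), both on the minus strand, and capitals mark the E-box CAGCTG.
Id2: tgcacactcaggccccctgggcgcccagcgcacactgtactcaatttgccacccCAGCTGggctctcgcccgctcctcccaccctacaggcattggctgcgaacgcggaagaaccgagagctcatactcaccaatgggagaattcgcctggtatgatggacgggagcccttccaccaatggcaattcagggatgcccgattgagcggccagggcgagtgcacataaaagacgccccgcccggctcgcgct
Tcf12: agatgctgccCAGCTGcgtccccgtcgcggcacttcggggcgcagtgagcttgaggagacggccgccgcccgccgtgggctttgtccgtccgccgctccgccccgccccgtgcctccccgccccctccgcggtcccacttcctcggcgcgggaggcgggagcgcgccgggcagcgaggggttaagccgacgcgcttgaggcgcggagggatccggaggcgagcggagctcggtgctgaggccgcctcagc
Tcf3 had a single CANNTG match, CACTTG, at position -54 from its start, and the Tcf12 windows held 3 further matches. A match is not evidence of binding, and promoter activity was not measured.

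Markers of other cell types were mostly without a row. Of 8 T cell markers only Lck was held (2.01 to 6.74 CPM over all groups), mast cell markers had at most Hdc (in the Ruxo_treated table, 5.17 to 6.27 CPM), and fibroblast markers had at most Col1a1 and Thy1 (summed 2.89 to 4.44 CPM, in the ruxolitinib washout table). Macrophage markers summed to 15.7 to 19.8 CPM in DMSO_treated, 12.8 to 19.3 in CHZ_treated and 13.5 to 19.1 in Ruxo_treated libraries, from Cd68 and Csf1r. After washout they summed to 23.7 to 32.9 CPM in CHZ_wash and 28.6 to 41.4 in DMSO_wash_exp3 libraries. The sums were 43.2 to 46.0 CPM in Ruxo_wash and 46.1 to 54.7 in DMSO_wash libraries, where Lyz2 and Adgre1 were also held. With CHZ868 at 6 h Csf1r fell by 1.18 (adjusted p = 0.00578, limma), while Cd68 was at 0.47 and did not pass (adjusted p = 0.054, limma). The summed pro-B markers were 3462 to 3517 CPM in DMSO_treated and 2759 to 3023 in CHZ_treated libraries. Of the 8 held, 3 rose and 3 fell past the threshold with CHZ868, where 53.2% of all genes passed. Csf2rb, its sister gene Csf2rb2 and Il3ra fell by 0.36, 0.33 and 0.24. Spi1, a myeloid and B-lineage factor gene, rose by 0.75, Cd79a by 0.42 and Ikzf1 by 0.26. The part of such shifts in the values of the Id and E-protein genes was not tested. In bulk RNA, fewer cells that express a gene and less RNA per cell cannot be told apart. As nothing states that the 3 libraries of a group came from separate cultures, the p values measure the spread between these libraries, which may be technical.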

How the data were processed

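RNA was sequenced from 21 libraries of Ba/F3 JAK2-V617F cells in 7 groups of 3, mapped to groups by their labels. The deposited values are log2 CPM, which the authors made with edgeR (4.0.16 in the processing notes) by removing genes with low expression, applying TMM normalization and adding a small constant (0.213 or 0.222 CPM where it could be solved). The paper's methods name kallisto and GRCm38, whereas the processing notes in the labels name STAR 2.7.3a and GRCm39, and which of these made the tables could not be settled from the values, so the counts of shared sequence given for each gene bound only what either could have mixed up. Tables were normalized separately. Replicate numbers come from the labels.

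The 6 genes and all gene lists were chosen with earlier results of these data known, so the lists carry no test of their own. Named genes were the 6 genes, members of the lists where a list is described, and the 5 genes (Id1) or 2 genes (each other gene) nearest in pattern. Whole reads were recovered from 3 tables by removing the constant, and in each library 100% of values below 30 CPM came out whole within 0.05 of a read, against 12.2 to 13.0% in the ruxolitinib washout table, which is too few. Each comparison within a table was fitted over all genes with limma-trend (limma 3.58.1, R 4.3.3), only the groups compared entering, p values adjusted over the whole table by Benjamini-Hochberg, and a threshold of 0.05. The difference between washout effects used 12 libraries. Ruxo_treated and DMSO_treated were compared after median centring over shared genes, without a test. The fits were first tested on simulated data. Neither quasi-likelihood nor other count tests were used as the main result, because the deposited unit is log2.

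Alternatives were log2(CPM + 1) and log2(CPM + 5), filters at a mean log2 CPM of 1 or 3, no trend, robust empirical Bayes, median centring, quantile normalization, a replicate block, voom on the recovered reads (2 comparisons), no length division for the ratio, and each library left out. The counts for gene lists without a library that stood apart were added after the data were seen. Library spread was taken over genes with a mean log2 CPM of at least 5, and counting noise over genes with at least 200 reads in both libraries. Positions, transcripts, lengths and shared 31-base words came from GENCODE annotation of GRCm38, and promoters from RefSeq. Python 3.11.15 with numpy 2.4.6, pandas 2.3.3 and matplotlib 3.10.9 was used.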

Additional observations from a re-analysis of the deposited data

How the results depend on the processing

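Over the settings that kept all libraries, 291 values kept their direction and side of the threshold or moved by less than the replicate spread. Signs turned under quantile normalization alone, for small differences at 6 h. With CHZ868, Id2 was at 0.41, Tcf3 at -0.019 and Tcf4 at -0.038, and with ruxolitinib, Id2 was at 0.13 and Tcf4 at -0.004, both within the replicate spread of their main value. Without the mean-variance trend 9 genes passed in the ruxolitinib washout, 0 in the CHZ868 washout (2767 had an unadjusted p under 0.05 with the trend) and 14 in the difference between them, against 3, 457 and 191. With robust empirical Bayes 5 passed in the ruxolitinib washout. With the replicate block 0 passed in the ruxolitinib washout (920 had an unadjusted p under 0.05 without the block), 539 in the CHZ868 washout and 6 in the difference, and no call among the Id and E-protein genes changed. Replicate numbers did not pair the libraries, since correlations of deviations between same-numbered libraries were from -0.05 to 0.05. The number of genes past 1 log2 unit with ruxolitinib at 6 h was 171 with log2(CPM + 5) and 233 at a mean log2 CPM of at least 3, against 363, and the difference of Id1 was -1.91 with log2(CPM + 1) and -1.77 with log2(CPM + 5).

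When single libraries were left out, the number of genes that passed was 0 to 1 in the ruxolitinib washout, 0 to 1426 in the CHZ868 washout and 5 to 628 in the difference, with 0 to 1 of the 5 genes in each of the last 2. At 6 h with CHZ868, Id2 ranged from -0.47 to 0.11 and Tcf3 from -0.047 to 0.10. In the ruxolitinib washout, Id2 ranged from -0.010 to 0.14, Tcf4 from -0.016 to 0.064 and Tcf12 from -0.18 to 0.032. In the CHZ868 washout, Id1 ranged from -0.092 to 0.12 and Tcf3 from -0.45 to -0.28. In the difference between the washouts, Id2 ranged from -0.19 to 0.011, Tcf3 from 0.32 to 0.49, Tcf4 from -0.20 to 0.021 and Tcf12 from -0.11 to 0.10. Depth limits Id2 most, with 18 to 46 reads per library at 6 h. For Id1 at 6 h with CHZ868 the adjusted p of limma stayed between 2.23e-13 and 0.000181 over all settings, and for Tcf12 between 5.04e-05 and 0.0153.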

Other observations

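The levels of these genes in the DMSO controls of the 3 experiments are given side by side. The tables were normalized separately, so they are not compared. Id1 was at 6.67 ± 0.05 log2 CPM in DMSO_treated, 7.72 ± 0.20 in DMSO_wash_exp3 and 9.13 ± 0.02 in DMSO_wash cells (SD, n = 3 each). Id2 was at 1.80 ± 0.57, 3.56 ± 0.21 and 5.85 ± 0.14 log2 CPM in the same order. Tcf12 was at 7.50 ± 0.08, 6.97 ± 0.14 and 5.16 ± 0.22, and Tcf4 at 6.49 ± 0.07, 5.39 ± 0.22 and 4.14 ± 0.05 log2 CPM. Tcf3 was at 6.54 ± 0.06, 6.73 ± 0.17 and 6.54 ± 0.05 log2 CPM. The DMSO_wash table is the one whose values are not whole reads. The summed pro-B markers were 3462 to 3517 CPM in DMSO_treated, 1858 to 2083 in DMSO_wash_exp3 and 527 to 534 in DMSO_wash libraries.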
